A study of Oreochromis niloticus with 6 samples.

Results

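The genes described here encode the cytosolic translation factors of the Nile tilapia (Oreochromis niloticus), measured as mRNA in liver after knockdown of elovl6. They were taken by product name. A gene was a member if its description named a eukaryotic translation initiation factor, elongation factor 1 or 2, a eukaryotic peptide chain release factor or the initiation factor eIF-2B, and if the description did not name mitochondria. This took 82 of the 29528 genes in the table. By role they were 3 genes of eIF2, 5 of eIF2B, 2 eIF2 kinases, 17 of eIF3, 20 of eIF4 with its binding proteins, 15 other initiation factors, 15 elongation factor genes with the eEF2 kinase, and 3 release factors. The remaining 2 genes, LOC100701647 and LOC100703874, encode homologs of transcription elongation factor 1, which acts on RNA polymerase, and are kept apart from the 80 translation factors below.

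Protein synthesis starts when eIF2 brings the initiator tRNA to the small ribosomal subunit, which eIF3 and eIF1A hold ready, while the cap-binding complex eIF4F recruits the mRNA. In eIF4F, eIF4E binds the cap, eIF4G is the scaffold and eIF4A is an RNA helicase, and 4E-binding proteins (4E-BPs) compete with eIF4G for eIF4E when the kinase complex mTORC1 is inactive. Elongation then runs on eEF1A, which delivers tRNAs, and eEF2, which moves the ribosome along, until eRF1 and eRF3 release the finished chain. These roles are known mainly from yeast and mammals, and in liver, an organ that exports large amounts of protein, the machinery follows amino acid and hormone supply.

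Livers came from male fish fed pellets with 5% palm oil. One group, elovl6 knockdown, had been treated with antisense RNA against elovl6, an elongase that lengthens palmitic acid. The other, the negative control, is labelled wild type in genotype, although the treatment text attached to its samples also mentions the antisense RNA, so the groups were taken from the titles. Each group has 3 libraries of poly(A) RNA from 9 fish per group, with RNA of 3 tanks pooled. It is not stated whether each library is a pool of its own, so the p-values measure only the spread between libraries, which may be technical. Neither the fish's age nor what the negative control contained is given in the sources used here.

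Library totals ran between 14341242 and 14973737 reads in knockdown and between 15322360 and 17245179 reads in control livers. Levels are given as FPKM, fragments scaled to gene length and to the library total, so they can be compared between genes per length. The targeted gene, elovl6, had 39.3, 36.9 and 36.6 FPKM in the knockdown libraries and 163, 160.4 and 163 FPKM in the control libraries. It was 4.34-fold lower in the knockdown (log2 fold change -2.12 with an SE of 0.05, edgeR adjusted p = 1.58e-22), while a 2-sided exact permutation test of the FPKM gave p = 0.1, the smallest that 3 against 3 libraries allow. Hepatocyte markers were abundant in every library, with summed levels of 36850.4 to 37141 FPKM in knockdown and 49253 to 50429 FPKM in control livers, and 5 of the 12 tested were higher and 6 lower. Markers of other cells also differed. Of 42 exocrine pancreas genes, 25 of the 27 tested were lower and 2 higher, with sums of 210 to 319 FPKM in knockdown and 29476 to 29857 FPKM in control livers, or 0.0314% of reads in knockdown and 3.29% in control livers. Of these 42 genes, 14 had no read in the knockdown libraries and 10 had none in the control libraries. Erythrocyte markers summed to 2628 to 2855 FPKM in knockdown and 17204 to 17801 FPKM in control livers, with 10 of 12 tested lower and 2 higher. Leukocyte markers summed to 778 to 786 FPKM in knockdown and 279.6 to 300.4 FPKM in control livers, with 7 of 7 tested higher. Endothelial markers summed to 54.7 to 58.2 FPKM in knockdown and 27.5 to 29.9 FPKM in control livers, with 5 of 5 tested higher. Among 7 stellate or fibroblast markers 3 of the 6 tested were higher and 1 lower, and the bile duct marker epcam was higher.

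In knockdown livers most translation factor mRNAs were lower, while 3 of the 4 eIF4E-binding protein genes, the eEF2 kinase gene eef2k and the elongation factor 1 genes ef-1a and eef1b2 were among those that were higher. Genes with a mean of at least 1 FPKM over the 6 libraries were tested, and a gene was called at an adjusted p under 0.05 with no minimum fold. Of the 71 members tested, 16 (22.5%) were higher, 49 (69.0%) were lower and 6 were not called. Over all 11431 genes tested, 39.1% were higher and 39.1% were lower, so 78.2% were called in all. The median log2 fold change of the members was -0.68, against -0.01 over all genes tested. A change of at least 2-fold was called in 8 members upward and in 21 downward, beside 22.1% upward and 20.9% downward of all genes tested. The libraries of the 2 groups did not overlap in 63 of the 71 members, beside 79.5% of all genes tested. Translation factors are expressed above most genes, with a median of 18.8 FPKM in the members and 4.66 FPKM over all tested genes. Among genes with a mean of at least 5 FPKM, 15 of 56 members (26.8%) were higher and 36 (64.3%) lower, beside 40.8% higher and 44.2% lower of 5469 genes, of which 85.0% were called. The 82 genes together took 1.91% of reads in knockdown and 1.70% in control livers.

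**Figure D1:**
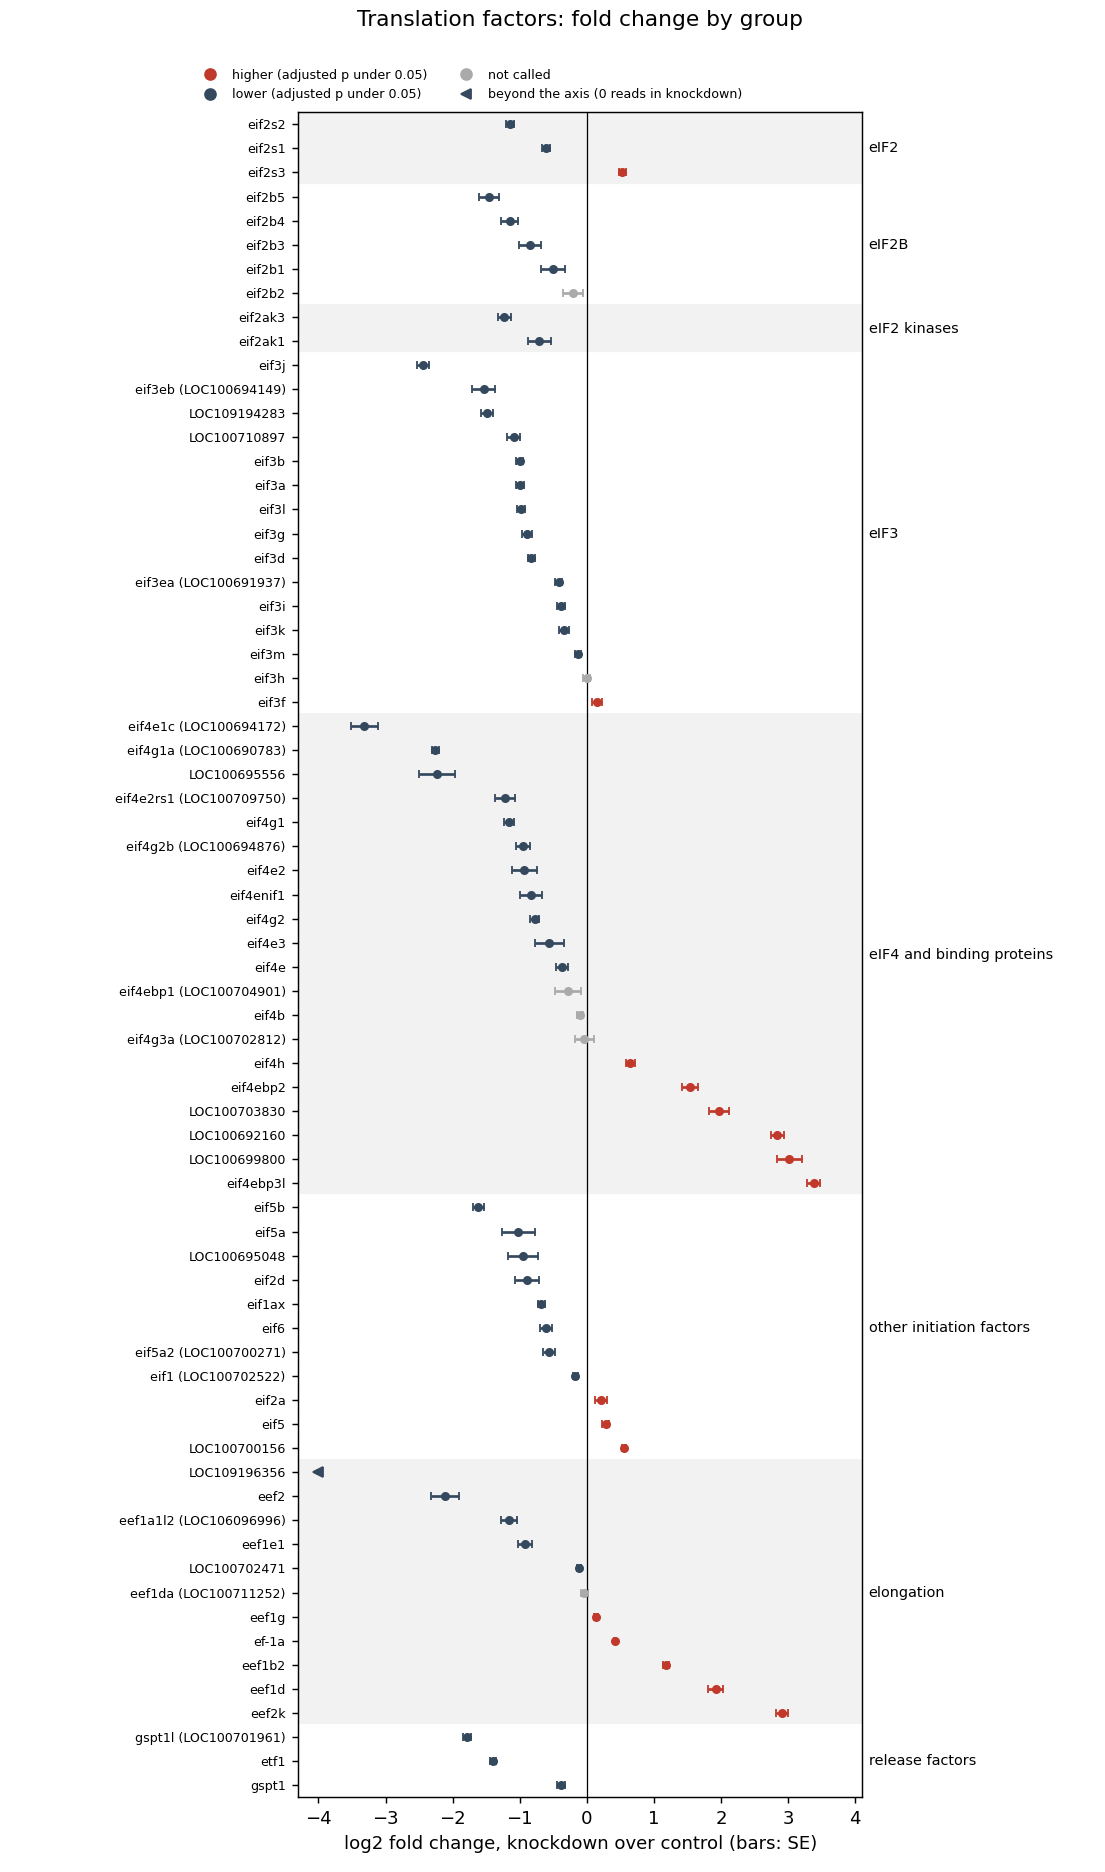
Log2 fold change (knockdown over control, horizontal axis) of the 70 tested translation factors, 1 row per gene, grouped by role. Points are edgeR estimates with their SE, red for higher, dark blue for lower and grey for genes that were not called; the triangle marks LOC109196356, which had 0 reads in the knockdown. Most points lie left of 0 in eIF2B, eIF3 and the release factors, while all but 1 of the 4E-binding protein genes and eef2k lie far to the right.

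The pancreas, blood and leukocyte marker levels above move with the groups for every gene that follows, and their part in these results was not tested. In whole liver, fewer cells of a type and less RNA per cell cannot be told apart. With pancreas genes left out before scaling, the same number of members was higher (16) and lower (49). That setting changed only the scaling, and reads of members from pancreas cells stayed in the counts. It therefore cannot show what part the cell types had.

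The subunits of eIF2 did not move together. This trimer carries the initiator tRNA in a GTP-bound complex: its gamma subunit binds GTP and tRNA, its alpha subunit is the one that stress kinases phosphorylate, and its beta subunit contacts the GTPase activator eIF5. The beta subunit gene eif2s2 had 26.9, 27.6 and 27.2 FPKM in the knockdown libraries and 57.6, 60.4 and 60.7 FPKM in the control libraries. It was 2.20-fold lower (log2 fold change -1.14 with an SE of 0.06, adjusted p = 1.8e-15). The alpha subunit gene eif2s1 had 42.7, 43.8 and 39.5 FPKM in knockdown and 59.9, 65.8 and 66.1 FPKM in control livers, 1.53-fold lower (-0.61, SE 0.06, adjusted p = 1.75e-09). In contrast, eif2s3, for the gamma subunit, was higher, at 97.4, 104 and 98.8 FPKM in the knockdown against 71.3, 64.8 and 69.7 FPKM in the control (0.53, SE 0.05, adjusted p = 2.02e-09). No library of either group overlapped with the other group in any of these genes, beside 79.5% of all genes tested without overlap. The FPKM ratio of eif2s3 to eif2s2 was 3.67 ± 0.0736 in knockdown and 1.15 ± 0.0828 in control livers (SD, n = 3 each). This ratio restates the opposite directions of the 2 genes and is no separate result.

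The exchange factor eIF2B, which reloads eIF2 with GTP, has 5 subunit genes, and 4 of them were lower, beside 39.1% of all genes tested. The largest change was in eif2b5, which encodes the catalytic epsilon subunit, with 3.39, 5.23 and 3.28 FPKM in knockdown and 11.2, 10.7 and 10.6 FPKM in control livers (2.74-fold lower, log2 fold change -1.46 with an SE of 0.15, adjusted p = 2e-09). The delta subunit gene eif2b4 averaged 6.15 ± 1.14 FPKM in knockdown and 13.6 ± 0.164 FPKM in control livers (SD, n = 3 each; -1.15, SE 0.13), and eif2b3, for the gamma subunit, averaged 4.18 ± 0.608 FPKM in knockdown against 7.46 ± 0.184 FPKM in control livers (-0.85, SE 0.16). Both differences exceeded the spread between libraries. The regulatory alpha subunit gene eif2b1 averaged 6.14 ± 0.925 FPKM in knockdown and 8.67 ± 1.04 FPKM in control livers, a log2 fold change of -0.50 with an adjusted p of 0.0117. That call was lost without knockdown library 3 (adjusted p = 0.0524) or control library 2 (0.0572), in a range of 0.00257 to 0.0572 over all alternatives. The beta subunit gene eif2b2 overlapped between the groups, at 8.87, 11.8 and 10.1 FPKM in knockdown and 13.5, 11.4 and 10.5 FPKM in control livers, and was not called (-0.21, SE 0.15, adjusted p = 0.213).

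Both eIF2 kinases among the members were lower, beside 39.1% of all genes tested. The kinase gene eif2ak3, known as PERK, which responds to unfolded protein in the endoplasmic reticulum, had 2.89, 3.04 and 2.52 FPKM in knockdown and 6.82, 6.27 and 6.56 FPKM in control livers. It was 2.34-fold lower (log2 fold change -1.23 with an SE of 0.10, adjusted p = 4.55e-11). The heme-regulated kinase gene eif2ak1 had 3.01, 3.70 and 2.67 FPKM in knockdown and 4.31, 5.43 and 5.54 FPKM in control livers (-0.71, SE 0.17, adjusted p = 5.26e-04). The groups did not overlap in either gene, beside 79.5% of all genes tested without overlap. An opposite-strand gene, ankrd61, overlaps eif2ak1 over 3064 bases, and reads of the pair cannot be told apart if counting ignored strand; ankrd61 itself had 71 reads in knockdown and 61 in control livers, beside 344 reads in knockdown and 631 in control livers for eif2ak1. The amino acid sensing kinase GCN2 is described under another name and was looked up after the values of the members were seen. Its gene eif2ak4 was higher, with a mean of 5.84 ± 0.591 FPKM in knockdown and 4.04 ± 0.35 FPKM in control livers (SD, n = 3 each; 0.52, SE 0.10, adjusted p = 8.18e-05).

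Of eIF3, the large scaffold that keeps ribosomal subunits apart and links them to eIF4G, 15 of 17 genes were tested. Of these, 13 (86.7%) were lower, 1 (6.67%) was higher and 1 was not called, with a median log2 fold change of -0.89. The share over all genes tested was 39.1% in each direction. The share of reads from eIF3 genes was 0.118% in knockdown and 0.181% in control livers. The largest change was in eif3j, a loosely bound subunit that in yeast takes part in start site choice, with 9.16, 8.69 and 7.82 FPKM in knockdown and 45.1, 42.5 and 50.4 FPKM in control livers. It was 5.41-fold lower (log2 fold change -2.44 with an SE of 0.09, adjusted p = 7.55e-18). All 3 knockdown libraries lay far below the lowest control library.

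The eIF3 genes described next were 1.78-fold to 2.82-fold lower. The subunit genes eif3a and eif3b, whose yeast counterparts form the center of the complex, averaged 17.6 ± 0.887 and 49.4 ± 1.63 FPKM in knockdown and 34.9 ± 0.367 and 98.2 ± 3.67 FPKM in control livers (SD, n = 3 each). Their log2 fold changes were -0.99 and -1.0 (SE 0.06 and 0.05). Subunit C is encoded by a pair of genes that lie 1596 bases apart on linkage group 8, LOC109194283 and LOC100710897, and both were lower (-1.49, SE 0.09, and -1.09, SE 0.10). The sequences of the pair were not compared. Any reads that the copies share could have been split between them by the authors' counting, so their sum is given too. It was 12.3, 14.3 and 13.2 FPKM in knockdown and 32.8, 32.4 and 34.9 FPKM in control livers. The sums of the 2 groups did not overlap. The log2 fold change was -0.98 (SE 0.06) for eif3l, -0.89 (SE 0.07) for eif3g, which helps scanning in yeast, and -0.83 (SE 0.05) for eif3d, which in mammals can bind the cap of some mRNAs.

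The remaining eIF3 genes varied. Subunit E is encoded by a major and a minor copy. The major copy, eif3ea (LOC100691937), the most abundant eIF3 gene, had 111, 121 and 115 FPKM in knockdown and 159.5, 147 and 156 FPKM in control livers (log2 fold change -0.42 with an SE of 0.05, adjusted p = 3.57e-08). The minor copy eif3eb (LOC100694149) averaged 2.91 ± 0.41 FPKM in knockdown and 8.42 ± 0.0983 FPKM in control livers (-1.54, SE 0.17). Lower levels were also found for eif3i (-0.39, SE 0.06) and eif3k (-0.34, SE 0.08). The subunit gene eif3h averaged 101 ± 4.25 FPKM in knockdown and 101 ± 2.36 FPKM in control livers and was not called (adjusted p = 0.946). The 2 groups overlapped widely in this gene. Calls in the last 2 genes were not stable. The higher level of eif3f (0.15, adjusted p = 0.042, 0.00622 to 0.507 over the alternatives) was no longer called without knockdown library 1 or 3, without control library 2 or 3, or with no filter. The lower level of eif3m (-0.13, adjusted p = 0.0264, 0.000102 to 0.188 over the alternatives) was no longer called without knockdown library 1 or 2, without control library 1, or at a minimum of 5 FPKM. Across the tested eIF3 genes of each library, the highest level was 33.5 to 45.1 times the lowest in knockdown and 17.4 to 19.2 times in control livers.

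**Figure D2:**
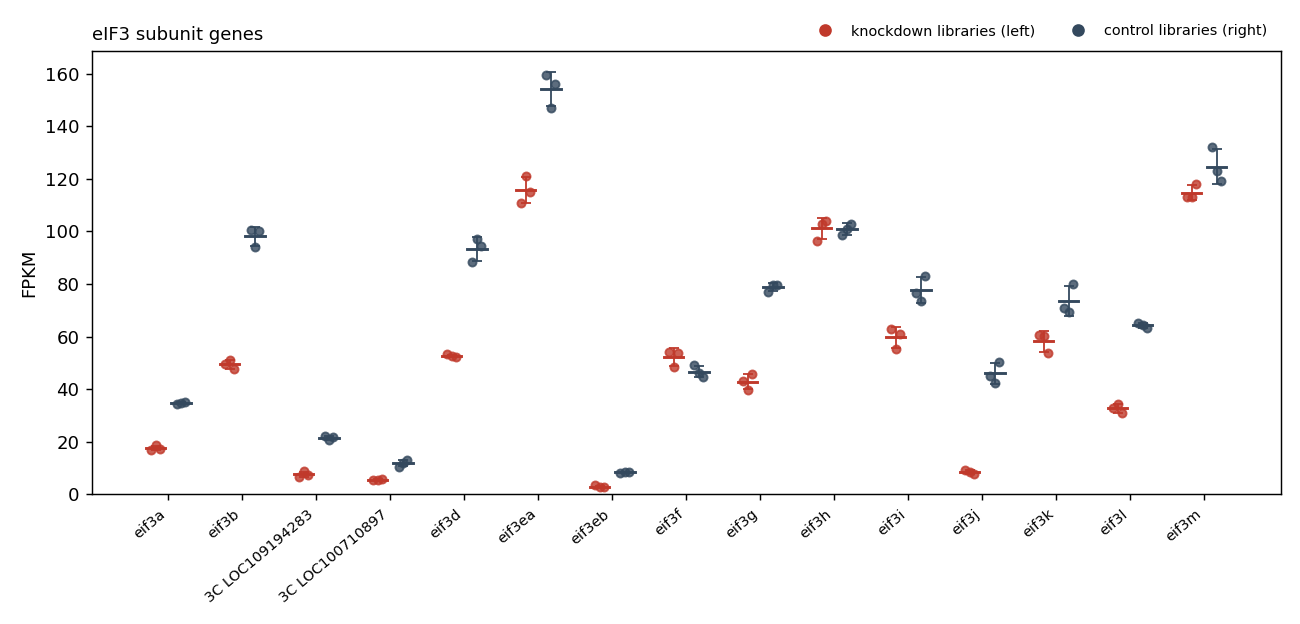
FPKM (linear axis) of the 15 tested eIF3 subunit genes, with the 3 knockdown libraries left of the 3 control libraries. Points are libraries, and bars are the mean with its SD; eif3j averages 8.56 FPKM in knockdown and 46.0 FPKM in control livers, while the groups coincide in eif3h.

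Of the 4 eIF4E-binding protein genes 3 (75.0%) were higher, beside 39.1% of all genes tested, and 1 was not called. The largest increase among the members was in 1 of these 4 genes. Their products are small repressors that occupy eIF4E unless mTORC1 phosphorylates them. The 4E-BP3-like gene (eif4ebp3l, LOC100703341, linkage group 2, 30931753 to 30935469, minus strand) had 58.0, 52.1 and 58.4 FPKM in knockdown and 5.68, 5.43 and 5.02 FPKM in control livers. It was 10.4-fold higher (log2 fold change 3.38 with an SE of 0.10, adjusted p = 8.46e-20). All 3 knockdown libraries lay far above the control libraries.

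Of the 2 genes described as 4E-BP1, only LOC100692160 (linkage group 7, 26318889 to 26322425, plus strand) passed the test. It had 87.2, 89.6 and 74.9 FPKM in knockdown and 11.3, 12.8 and 11 FPKM in control livers, 7.15-fold higher (2.84, SE 0.10, adjusted p = 3.16e-18). The other gene, LOC100704901, which RefSeq names eif4ebp1, had 6.30, 6.18 and 10.1 FPKM in knockdown and 7.84, 9.13 and 10.3 FPKM in control livers. Its groups overlapped, and it was not called (-0.28, SE 0.19, adjusted p = 0.192, 0.0148 to 0.485 over the alternatives). Without knockdown library 3, the highest of its group, it was called lower (-0.55). The fourth gene of the family, eif4ebp2, had 13.9, 14 and 17.4 FPKM in knockdown and 5.85, 5.33 and 4.34 FPKM in control livers, 2.90-fold higher with no overlap (1.54, SE 0.12, adjusted p = 2.05e-11).

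The target of these repressors changed the other way. The principal cap-binding protein gene, eif4e, had 21.6, 18.8 and 18.5 FPKM in knockdown and 24.6, 25.4 and 25.7 FPKM in control livers (log2 fold change -0.37 with an SE of 0.09, adjusted p = 0.00101). A second gene of the same class, eif4e1c (LOC100694172), had 0.944, 2.26 and 1.71 FPKM in knockdown and 15.8, 17.3 and 16.0 FPKM in control livers, 10.0-fold lower (-3.32, SE 0.20, adjusted p = 1.36e-13). The gene LOC100695556, described as eIF4E-1A, had 0.650, 2.22 and 1.39 FPKM in knockdown and 6.38, 6.35 and 7.17 FPKM in control livers (-2.23, SE 0.27). In all 3 genes every knockdown library lay below every control library. The groups did not overlap, in either direction, in 79.5% of all genes tested.

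Summed per library, the 4 binding protein genes reached 166, 162 and 161 FPKM in knockdown and 30.6, 32.7 and 30.6 FPKM in control livers. The 3 eIF4E genes above summed to 23.2, 23.3 and 21.7 FPKM in knockdown and 46.8, 49.1 and 48.9 FPKM in control livers. The ratio of the first sum to the second was 7.17 ± 0.239 in knockdown and 0.649 ± 0.0212 in control livers (SD, n = 3 each). This ratio of mRNA levels differed 11-fold between the groups. With the first sum higher and the second lower in knockdown, the ratio had to differ more than either sum. It is therefore no separate result. The gene eif4e supplied 86.5% ± 6.23 of the eIF4E sum in knockdown and 52.3% ± 0.377 in control livers.

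**Figure D3:**
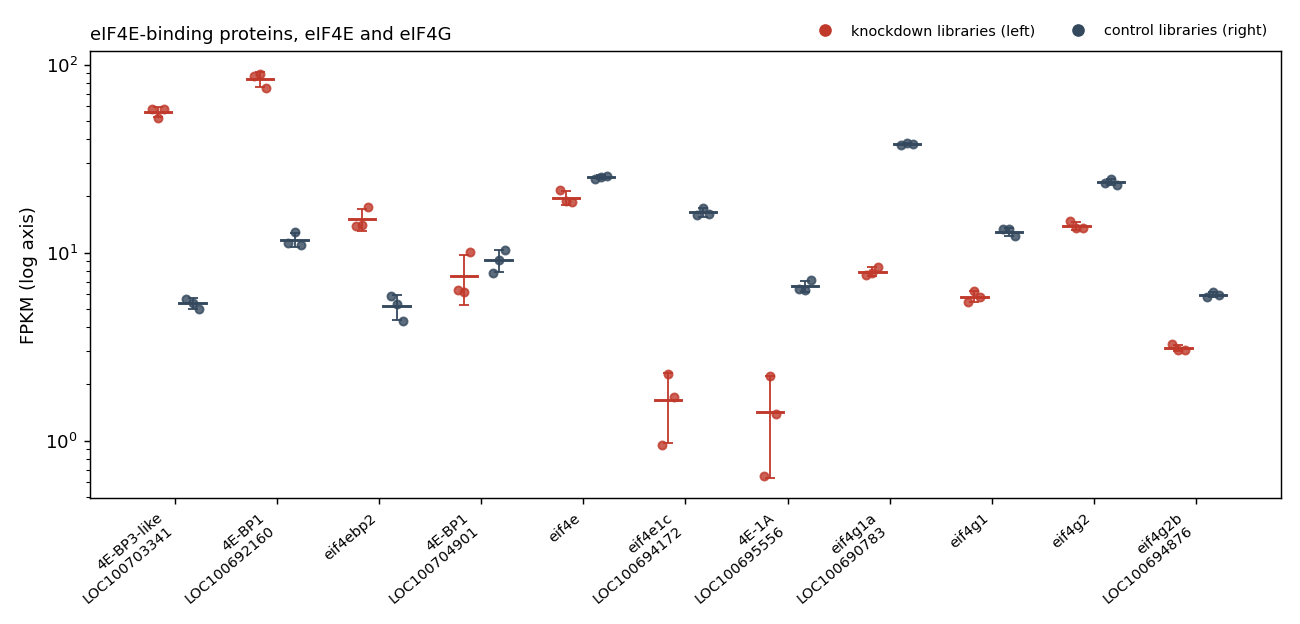
FPKM (log axis) of the eIF4E-binding protein genes, the eIF4E genes of the principal class and 4 eIF4G genes, with knockdown libraries left of control libraries. Points are libraries, and bars are the mean with its SD; 3 of the 4 binding protein genes lie above their control libraries, and the eIF4E genes and the 4 eIF4G genes drawn lie below theirs. Not drawn are LOC100703830, described as an eIF4 gamma, which was higher, and the eIF4G gene eif4g3a, which was not called.

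The cap-binding relatives of eIF4E differed among themselves. Genes of type 2, which in mammals binds the cap without recruiting ribosomes and represses some mRNAs, were lower: eif4e2 averaged 2.84 ± 0.851 FPKM in knockdown and 5.41 ± 0.163 FPKM in control livers, and eif4e2rs1 (LOC100709750) averaged 8.40 ± 1.78 FPKM in knockdown against 19.5 ± 0.905 FPKM in control livers (SD, n = 3 each). The type 3 pair went in opposite directions. LOC100699800 had 8.14, 7.43 and 7.95 FPKM in knockdown and 1.02, 0.866 and 0.979 FPKM in control livers, 8.12-fold higher (log2 fold change 3.02 with an SE of 0.18, adjusted p = 5.02e-14). The gene named eif4e3 had 1.03, 1.32 and 1.24 FPKM in knockdown and 1.68, 1.63 and 1.94 FPKM in control livers (-0.56, SE 0.22, adjusted p = 0.0241, 0.0108 to 0.102 over the alternatives), and its call was lost without knockdown library 1 or control library 3. LOC100699800 thus supplied 86.7% ± 1.98 of the type 3 FPKM in knockdown and 35.3% ± 2.23 in control livers. The transporter gene eif4enif1, whose product carries eIF4E into the nucleus, was lower (-0.83, SE 0.16).

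Scaffold genes were mostly lower. The eIF4G1 gene eif4g1a (LOC100690783) had 7.58, 7.83 and 8.39 FPKM in knockdown and 37.4, 38.1 and 37.6 FPKM in control livers, 4.78-fold lower (log2 fold change -2.26 with an SE of 0.05, adjusted p = 3.64e-22). Its paralog eif4g1 had 5.45, 6.24 and 5.80 FPKM in knockdown and 13.3, 13.3 and 12.2 FPKM in control livers (-1.16, SE 0.07). The 2 groups lay well apart in both, and they did not overlap in 79.5% of all genes tested. The eIF4G2 genes, whose mammalian product lacks the eIF4E site, were lower as well, with log2 fold changes of -0.78 (SE 0.07) for eif4g2 and -0.95 (SE 0.11) for eif4g2b (LOC100694876). The eIF4G3 gene eif4g3a (LOC100702812) averaged 2.13 ± 0.314 FPKM in knockdown and 2.17 ± 0.15 FPKM in control livers and was not called (adjusted p = 0.811). In the opposite direction, LOC100703830, described as an eIF4 gamma and given no subtype, had 13.1, 16.8 and 15.7 FPKM in knockdown and 4.14, 4.28 and 3.14 FPKM in control livers, 3.93-fold higher (1.97, SE 0.15, adjusted p = 1.19e-11). Its length is 1679 bases, beside 7012 for eif4g1a, 6562 for eif4g1 and 3806 for eif4g2. Whether it encodes a full scaffold was not tested.

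The helicase cofactors eIF4B and eIF4H did not share a direction. The gene eif4h was higher, with 68.9, 74.5 and 67.8 FPKM in knockdown and 40.2, 46.9 and 46.8 FPKM in control livers (log2 fold change 0.65 with an SE of 0.07, adjusted p = 5.34e-09). The level of eif4b was 47.1 ± 0.96 FPKM in knockdown and 50.3 ± 2.89 FPKM in control livers (SD, n = 3 each) and was not called (-0.10, adjusted p = 0.0717, 0.00122 to 0.383 over the alternatives). It was called lower without control library 1 (-0.14) or with no filter (-0.20). The helicase eIF4A itself is described without the word translation and so is no member. Looked up after the values were seen, eif4a1a (LOC100693841) was higher (204 ± 9.22 FPKM in knockdown and 162 ± 3.41 FPKM in control livers, 0.33, SE 0.04) and eif4a2 was lower (31.5 ± 2.92 FPKM in knockdown against 84.2 ± 3.1 FPKM in control livers, -1.43, SE 0.06).

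Among the other initiation factors 8 of 11 tested (72.7%) were lower and 3 (27.3%) were higher, beside 39.1% in each direction over all genes tested. The largest change was in eif5b, the GTPase that joins the large ribosomal subunit, with 6.04, 7.08 and 8.15 FPKM in knockdown and 21.5, 22.6 and 20.9 FPKM in control livers, 3.07-fold lower (log2 fold change -1.62 with an SE of 0.08, adjusted p = 6.04e-15). A second gene described as eIF5B, LOC100695048, averaged 1.35 ± 0.381 FPKM in knockdown and 2.60 ± 0.479 FPKM in control livers (-0.95, SE 0.22). Genes of the scanning factors eIF1A and eIF1 were both lower, with log2 fold changes of -0.68 (SE 0.05) for eif1ax and -0.17 (SE 0.04) for eif1 (LOC100702522). The gene eif1 was among the most abundant initiation factors, at 212 ± 4.85 FPKM in knockdown and 237 ± 3.08 FPKM in control livers. Lower levels were found for eif2d (-0.89, SE 0.18), which can deliver tRNA outside the usual route, and for eif6 (-0.61, SE 0.09), which keeps the large subunit from joining early. The GTPase activator gene eif5 was higher, with 53.7, 55.4 and 53.2 FPKM in knockdown and 44.0, 44.1 and 45.1 FPKM in control livers (0.28, SE 0.05, adjusted p = 2.37e-05). The higher level of eif2a (0.21, adjusted p = 0.0409, 0.014 to 0.31 over the alternatives) overlapped between groups and lost its call without knockdown library 1 or 3, without control library 1, with no filter, with limma and with DESeq2.

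Genes for eIF5A, the factor that helps ribosomes past stalling sequences and carries the modified amino acid hypusine, split by abundance. The abundant gene LOC100700156 had 709.8, 703 and 699 FPKM in knockdown and 448, 492 and 483 FPKM in control livers. It was 1.48-fold higher (log2 fold change 0.56 with an SE of 0.03, adjusted p = 1.02e-13). The minor genes eif5a2 (LOC100700271; -0.57, SE 0.09) and the gene that the table names eif5a (-1.02, SE 0.25) were lower. The abundant gene made up 98.7% of the summed eIF5A FPKM in knockdown and 97.0% in control livers. Both enzymes of hypusine synthesis were lower, beside 39.1% of all genes tested. The gene dohh had 4.01, 2.42 and 2.47 FPKM in knockdown and 12.4, 13.1 and 11.6 FPKM in control livers (-2.07, SE 0.16, adjusted p = 1.2e-11). The gene dhps averaged 1.93 ± 0.487 FPKM in knockdown and 4.04 ± 0.698 FPKM in control livers (-1.07, SE 0.25).

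Of 11 tested elongation genes 5 (45.5%) were higher, the kinase gene eef2k among them, 5 (45.5%) were lower and 1 was not called, beside 39.1% in each direction over all genes tested. They took 1.45% of reads in knockdown and 1.16% in control livers. The eEF1A gene ef-1a, the most abundant member, had 4890.4, 4988 and 5099 FPKM in knockdown and 3655, 3715 and 3749 FPKM in control livers, 1.34-fold higher (log2 fold change 0.42 with an SE of 0.02, adjusted p = 5.45e-14). The exchange factor subunit gene eef1b2, whose product reloads eEF1A with GTP, had 1319, 1337 and 1367 FPKM in knockdown and 551, 588 and 622 FPKM in control livers, 2.27-fold higher (1.18, SE 0.04, adjusted p = 1.82e-19). The groups were apart in both genes, beside 79.5% of all genes tested, and eef1b2 changed more than ef-1a. The structural subunit gene eef1g had 1142, 1153 and 1177 FPKM in knockdown and 1064, 1027 and 1043 FPKM in control livers (0.14, SE 0.03, adjusted p = 2.84e-04, 3.4e-06 to 0.217 over the alternatives), a call that was lost with no filter. The FPKM ratio of eef1b2 to eef1g was 1.16 ± 0.0037 in knockdown and 0.562 ± 0.0401 in control livers (SD, n = 3 each).

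The delta subunit of the exchange factor is encoded by an abundant and a minor gene. The abundant eef1da (LOC100711252) averaged 109 ± 1.59 FPKM in knockdown and 112 ± 4.44 FPKM in control livers. It was not called (-0.04, adjusted p = 0.464, 0.0224 to 0.772 over the alternatives), but was called lower with no filter (-0.13). The minor eef1d had 17.7, 18.2 and 18.1 FPKM in knockdown and 4.34, 4.31 and 5.48 FPKM in control livers, 3.80-fold higher without overlap (log2 fold change 1.92 with an SE of 0.11, adjusted p = 1.46e-14). The gene eef1e1, whose mammalian product is part of the multi-tRNA synthetase complex, was lower (-0.92, SE 0.10).

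Near ef-1a on linkage group 22 lie 2 further genes described as elongation factor 1-alpha, and both were lower. LOC106096996 (eef1a1l2), 164 bases from ef-1a, averaged 6.83 ± 0.882 FPKM in knockdown and 15.2 ± 1.33 FPKM in control livers (SD, n = 3 each; log2 fold change -1.16 with an SE of 0.12, adjusted p = 5.79e-09). LOC109196356, which lies 26773 bases from ef-1a (11638208 to 11649393, minus strand), had no read in any knockdown library and 4.60, 5.46 and 3.58 FPKM in the control libraries. With 0 reads in knockdown and 294 in control livers, it was at least 87.2-fold lower, counted against a floor of 3 reads over the group, which covers counting error only. These copies may share reads with ef-1a, whose 380287 reads in knockdown and 317321 in control livers exceed theirs by far, so their values are uncertain.

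The genes of the translocase eEF2 summed to 828, 815 and 804 FPKM in knockdown and 911, 865 and 876 FPKM in control livers. Its abundant gene LOC100702471 had 827, 814 and 803 FPKM in knockdown and 907, 861 and 873 FPKM in control livers (log2 fold change -0.12 with an SE of 0.03, adjusted p = 0.00134, 2.36e-14 to 0.0706 over the alternatives), a call that was lost at a minimum of 5 FPKM. The minor copy eef2 averaged 0.848 ± 0.132 FPKM in knockdown and 3.64 ± 0.343 FPKM in control livers (-2.11, SE 0.21). It had 119 reads in knockdown and 575 in control livers, beside 103374 in knockdown and 125637 in control livers for LOC100702471. An opposite-strand gene, LOC100708760, overlaps eef2 over 3145 bases and itself had 5 reads in knockdown and 11 in control livers. Reads may be shared with either gene, so the value of eef2 is uncertain. The kinase that inactivates eEF2 by phosphorylation in mammals, encoded by eef2k (linkage group 8, 9896652 to 9909907, plus strand), had 36.5, 31.5 and 30.7 FPKM in knockdown and 4.65, 4.06 and 4.30 FPKM in control livers. It was 7.54-fold higher (2.91, SE 0.09, adjusted p = 8.09e-20). The lowest knockdown library lay far above the highest control library. Diphthamide is a modified histidine that eEF2 carries. Of 5 tested genes for its synthesis 4 were lower, beside 39.1% of all genes tested, and dph7 was not called (-0.39, adjusted p = 0.131). The median log2 fold change of these 5 genes was -1.26.

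**Figure D4:**
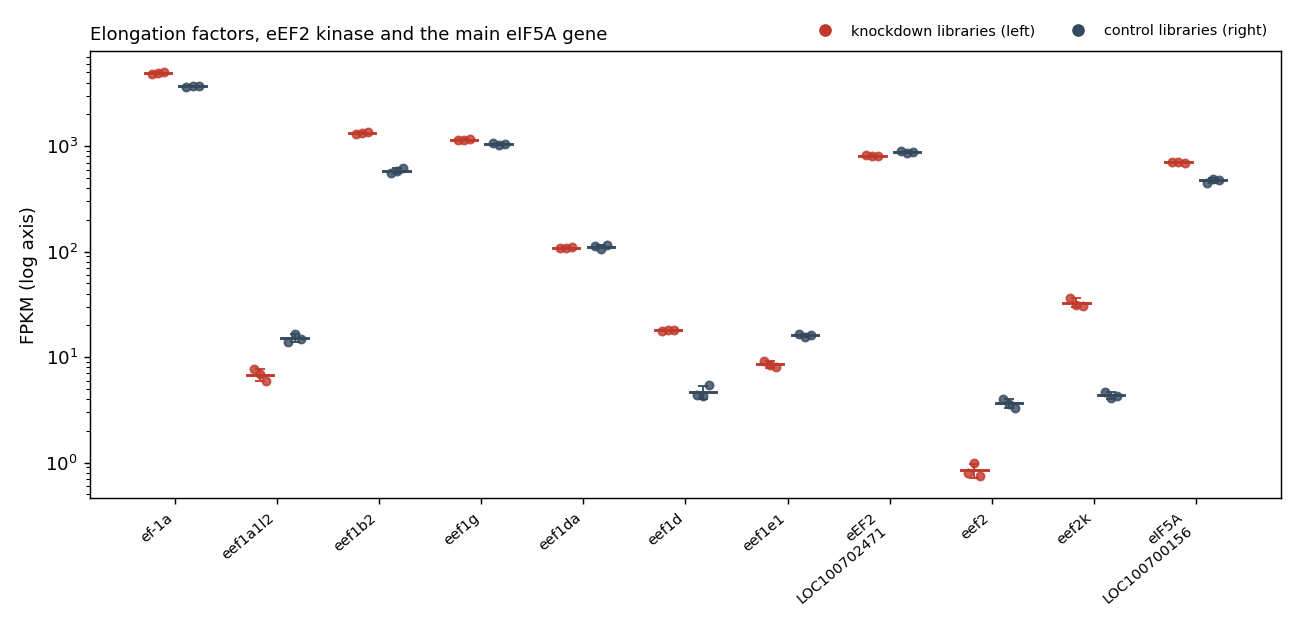
FPKM (log axis) of 10 elongation factor genes, including the eEF2 kinase gene eef2k, and of the abundant eIF5A gene, with knockdown libraries left of control libraries. Points are libraries, and bars are the mean with its SD; eef2k averages 32.9 FPKM in knockdown and 4.33 FPKM in control livers, while the eEF2 gene LOC100702471 averages 815 FPKM in knockdown against 880.5 FPKM in control livers.

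All 3 release factor genes were lower, beside 39.1% of all genes tested. Release factor genes took 0.0226% of reads in knockdown and 0.051% in control livers. The eRF1 gene etf1, which encodes the protein that reads stop codons, had 42.0, 43.4 and 39.7 FPKM in knockdown and 107, 112 and 109.7 FPKM in control livers. It was 2.64-fold lower (log2 fold change -1.40 with an SE of 0.05, adjusted p = 2.62e-18). The partner GTPase eRF3 is encoded by gspt1 and by gspt1l (LOC100701961). The gene gspt1l had 19.2, 18.8 and 19.5 FPKM in knockdown and 63.4, 66.1 and 67.5 FPKM in control livers, 3.44-fold lower (-1.78, SE 0.06, adjusted p = 3.65e-19). The gene gspt1 had 35.2, 33.3 and 32.0 FPKM in knockdown and 44.3, 43.6 and 42.2 FPKM in control livers (-0.38, SE 0.06, adjusted p = 2.26e-06). No library of either group overlapped with the other group in these genes, beside 79.5% of all genes tested without overlap. Of the summed eRF3 level, gspt1l made up 36.5% ± 1.3 in knockdown and 60.2% ± 1.35 in control livers (SD, n = 3 each).

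Genes around the factors, from a list of 65, were mixed. The list is wider than genes that act on the factors. It also holds asns, chac1, ddit3 and rps6, and rps6 is counted again among the ribosomal protein genes below. Of 59 tested, 17 (28.8%) were higher, 30 (50.8%) lower and 12 not called, with a median log2 fold change of -0.33. Over all genes tested, 39.1% were higher and 39.1% lower. Both kinases that phosphorylate eIF4E were higher. The larger change was in mknk2, with 10.6, 11.2 and 10.5 FPKM in knockdown and 0.287, 0.394 and 0.313 FPKM in control livers, 32.3-fold higher (5.01, SE 0.14, adjusted p = 1.38e-20). Of 14 tested genes around mTOR 6 (42.9%) were higher and 3 (21.4%) lower, beside 39.1% in each direction over all genes tested. The 14 include rictor, of the other mTOR complex, and the kinase genes rps6kb1a and rps6kb1b, which act downstream of mTORC1. The largest change among the 14 was in the mTORC1 inhibitor ddit4, with 34.2, 28.9 and 28.8 FPKM in knockdown and 0.842, 0.779 and 1.46 FPKM in control livers, 29.2-fold higher (4.87, SE 0.17, adjusted p = 8.61e-19). Also higher were tsc2 (1.63, SE 0.09) and tsc1b (1.30, SE 0.12), whose products restrain mTORC1 together. The other tsc1 copy, tsc1a (LOC100705892), was not called (0.12, SE 0.10, adjusted p = 0.257). Higher levels were also found for sesn2 (1.75, SE 0.18), which signals amino acid shortage to mTORC1 in mammals, and for mtor itself (0.40, SE 0.11). The kinase gene rps6kb1a (LOC100709560) was not called (-0.37, SE 0.25, adjusted p = 0.175). The 3 lower genes were rps6kb1b, for a kinase that mTORC1 activates (LOC100691710; -1.97, SE 0.09), the mTOR inhibitor gene deptor (-0.99, SE 0.12) and rptor, for the scaffold of mTORC1 (-0.33, SE 0.14). Of 11 tested genes around eIF2 phosphorylation and ATF4, 8 (72.7%) were lower and 2 (18.2%) higher. The higher genes were ddit3 (2.45, SE 0.06) and chac1 (2.58, SE 0.05), while atf4 (-0.29, SE 0.06) and the GCN2 activator gene gcn1 (-2.04, SE 0.09) were lower.

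Of 7 tested genes of ribosome rescue, recycling and reinitiation and their relatives 6 (85.7%) were lower and none was higher. Over all genes tested, 39.1% were called in each direction. The gene mcts1 was not called (-0.25, adjusted p = 0.0785). The rescue factor gene pelo had 0.857, 1.5 and 1.78 FPKM in knockdown and 10.7, 10.9 and 9.94 FPKM in control livers, 7.62-fold lower (log2 fold change -2.93 with an SE of 0.19, adjusted p = 7.34e-13), and the recycling factor gene abce1 was 2.30-fold lower (-1.20, SE 0.07). Of 4 la-related protein genes 3 (75.0%) were lower. The largest change was in larp1b (LOC100690925), with 0.998, 1.09 and 1.54 FPKM in knockdown and 12.0, 12.3 and 12.9 FPKM in control livers (-3.36, SE 0.12, adjusted p = 1.68e-18). The gene larp1 itself was 2.19-fold lower (-1.13, SE 0.08). In mammals LARP1 binds the mRNAs of ribosomal proteins and elongation factors, and a link to these mRNAs was not tested here. Among 4 tested genes of poly(A)-binding proteins and partners 3 (75.0%) were higher, led by paip2 (1.87, SE 0.20), a repressor of poly(A)-binding protein. The gene paip2 averaged 14.5 FPKM in knockdown and 3.92 FPKM in control livers. The more abundant paip2b averaged 30.5 FPKM in knockdown and 33.5 FPKM in control livers and was not called (-0.14, SE 0.07, adjusted p = 0.062).

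Set beside the factors, most cytosolic ribosomal protein genes were higher. Of 87 tested, 82 (94.3%) were higher, 4 (4.6%) lower and 1 not called, with a median log2 fold change of 0.77. The share over all genes tested was 39.1% in each direction. Ribosomal protein genes took 9.48% of reads in knockdown and 5.49% in control livers. Of the 39 tested genes of eIF2, eIF2B, eIF3 and eIF4 without the 4E-binding proteins, 5 (12.8%) were higher and 30 (76.9%) lower. The median of these 39 genes was -0.83. Not all factors differed from the ribosomal protein genes in direction. Of 11 tested elongation genes 5 were higher and 5 lower, and the abundant ef-1a (0.42) and eef1b2 (1.18) were among the higher ones. With ribosomal protein genes left out before scaling, 16 members were higher and 49 lower, as many as with them.

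**Figure D5:**
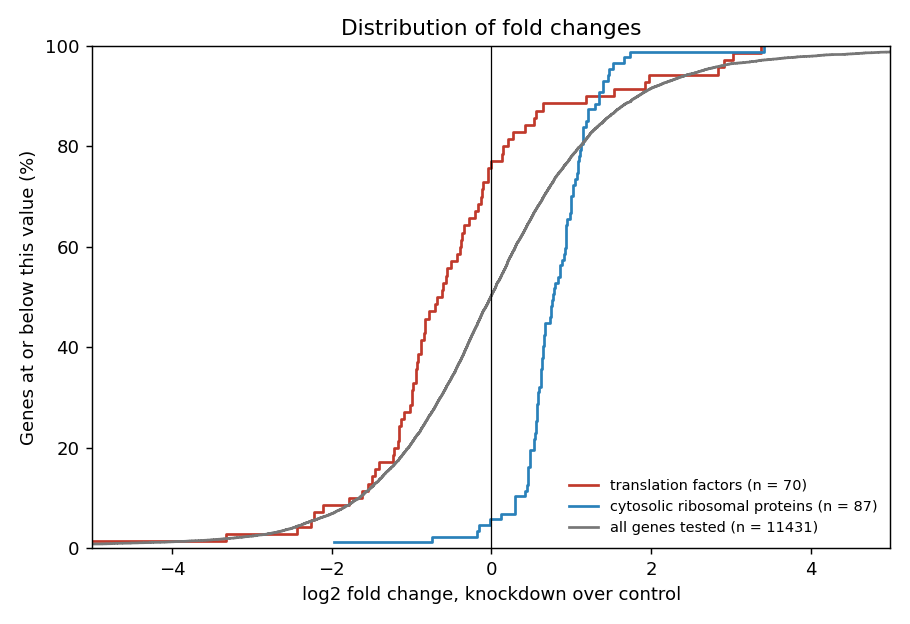
Cumulative share of genes (vertical axis, %) at or below each log2 fold change (knockdown over control, horizontal axis) for the 70 tested translation factors, the 87 tested ribosomal protein genes and all 11431 tested genes. The line of the translation factors lies left of that of all genes between about -1 and 1, with a median of -0.65, and that of the ribosomal protein genes lies to the right, with a median of 0.77; values beyond the axis are not drawn.

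The 11 members below the level for testing included an eIF3 subunit G-like gene, an eIF3 subunit A-like gene, 4 eEF1A copies and 4 eIF5B copies. The last was LOC100703874, a homolog of transcription elongation factor 1. The subunit G-like gene LOC100693680 had 0, 0.273 and 0.131 FPKM in knockdown and 0.710, 1.02 and 0.794 FPKM in control livers, from 3 reads in the knockdown against 21 in the control. The other translation factors among the 11 had at most 9 reads in knockdown and at most 3 in control livers. The tested homolog of transcription elongation factor 1, LOC100701647, was lower (log2 fold change -1.29 with an SE of 0.23, adjusted p = 1.38e-05). In all, 19 of the 82 genes are overlapped by a gene on the opposite strand and none by another gene on the same strand.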

How the data were processed

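Poly(A) RNA in 6 liver libraries was read as pairs of 150 bases, per the labels' protocols. The submitters' processing notes name cutadapt 1.9 and HISAT. Which program counted reads, whether it used strand, how it treated multiply mapped reads and which build it used is not given in the sources used here. Per the file headers, the table holds a deposited read count and a deposited FPKM per gene and library. In 100% of values the authors' FPKM equalled count over gene length and library total, within a relative tolerance of 1e-05. All 82 members matched an NCBI RefSeq table of the O_niloticus_UMD_NMBU assembly with equal start and end; linkage groups and the symbols of 17 of the 36 members named by locus number come from it.

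Deposited counts were tested with edgeR 4.0.16 (R 4.3.3; quasi-likelihood, TMM scaling, no covariate) over all 11431 genes that averaged 1 FPKM or more, knockdown over control. Adjusted p-values are Benjamini-Hochberg over all these genes, and the SE is the log2 fold change over the square root of F. No test was made over a list. The fit was also run on simulated counts in which only a small part of the genes changed. In these data 78.2% of tested genes were called, so that run does not cover this setting. The common biological coefficient of variation was 9.4%, and the smallest counts limit precision most.

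Members, lists and rules were chosen with earlier results of these data known. Named were all eIF2 kinases, 4E-binding proteins and eef2k, and tested members not called. Also named were the 4 largest called changes and the 2 most abundant members of each group, and 4 of the 65 genes around the factors. Members and genes named beyond these 48 were chosen after their values were seen. The same holds for the split of the 65 genes by role. No ratio between genes or sums was planned. Marker genes were matched by symbol or product name, with protease inhibitors and carboxypeptidase B2 taken out of the pancreas list. Alternatives were RLE size factors, library totals, no filter, a minimum of 5 FPKM, a replicate block, scaling without pancreas or ribosomal protein genes, limma 3.58.1 on log2(FPKM + 1) and log2(FPKM + 0.1), DESeq2 1.42.0 and leaving out each library.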

Additional observations from a re-analysis of the deposited data

How the results depend on the processing

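Of the 65 called members, 58 kept call and direction under all of the 16 alternatives that tested them, 7 lost the call under at least 1, and 0 turned. With a library left out, 14 to 16 members were higher and 47 to 49 lower, and 4265 to 4386 of all genes were higher and 4240 to 4398 lower. With no filter, which moved the median log2 fold change of the 11431 genes by -0.10, 13 members were higher and 51 lower; the shift was 0.06 at a minimum of 5 FPKM and at most 0.01 under the other settings. Among eIF3 genes the higher count was 0 to 1 with a library left out and 0 with no filter. At a minimum of 5 FPKM, which tests fewer genes, 2341 of all genes were higher and 2321 lower, lower calls were 6 in eIF4 with its binding proteins, 2 in elongation and 5 in other initiation factors, and both eIF2 kinases were no longer tested. Genes that were not called turned in sign near 0. For eif3h the log2 fold change was 0.00 with RLE size factors, both limma fits and DESeq2, 0.01 with library totals only or without ribosomal protein genes in the scaling, 0.05 at 5 FPKM, and -0.02 to 0.03 with a library left out (0.03 without knockdown library 1, 0.01 without control library 3). For LOC100702812 it was -0.16 to 0.03 with a library left out (0.02 and 0.03 without knockdown library 2 and 3 and 0.01 without control library 1), and for LOC100711252 it was 0.02 at 5 FPKM.

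Replicate numbers are in the labels, but same-numbered libraries did not deviate together (correlations of -0.00329, 0.00637 and -0.00245 across genes). The values gave no sign of pairing by number. They cannot exclude it, because spread that is technical would not follow pairs. With a replicate block 16 members were higher and 49 lower, and elovl6 changed by -2.12. Pooling of fish, cell types that differ between the groups and counting of copies limit all values above; the causes of changed calls were not tested.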
